A study of Gallus gallus and Columba livia with 18 samples.

Results

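In the retina of the chicken embryo, a small set of genes was highest at the middle one of 3 sampled stages, with lower values both before and after it. The stages, here called E3, E5 and E8, cover embryonic days 3 to 3.5, 5 to 5.5 and 8 to 8.5 of chicken (Gallus gallus) and pigeon (Columba livia) embryos grown in incubated eggs, and the labels name no strain and no treatment. Each library of messenger RNA came from 1 to 6 whole retinas, and each species and stage had 3 libraries, 18 in all. The deposited tables hold 1 pooled value per gene and stage in FPKM, a count of sequenced fragments divided by transcript length and by the size of the library. No SD, n or p-value can therefore be given, and no difference has a replicate check.

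A chicken row was called peaking when its E5 value was at least 3 FPKM and its log2(FPKM + 1) at E5 lay at least 0.7 above that at E3 and above that at E8. This held for 158 of 24708 rows, or 1.53% of the 10356 rows with an E5 value of at least 3 FPKM. These E3, E5 and E8 values chose the genes, so in chicken they are given as a description, while the pigeon values played no part in the choice. All differences below are on the log2(FPKM + 1) scale, which understates the change of genes with low values. The depth of each library is unknown here, so no interval for counting error can be given.

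Between these days the avian optic cup is dividing and makes its first neurons, above all ganglion cells. Its outer layer becomes the pigment epithelium, which makes melanin in melanosomes, while the rim forms the ciliary margin. Lens, vessels, blood and the periocular mesenchyme, from which cornea, sclera and stroma arise, lie close to the optic cup. The neural retina itself was well represented at every stage. SIX6, an eye field factor, was at 76.1, 82.6 and 104 FPKM at E3, E5 and E8, and SOX2, a factor of neural progenitors, at 69.5, 101 and 136 FPKM. PAX6, needed for eye formation, was at 301, 252.5 and 252.1 FPKM, and LHX2, another eye field factor, at 88.2, 57.8 and 48.2 FPKM. None of these genes met the rule.

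The peaking rows were 95 named genes, 1 row that joins the names HIPK1 and OLFML3, 15 rows known by an identifier only, 18 small RNA rows and 29 rows with no name. Small RNA rows met the rule most often, 18 of 76 (23.7%), against 96 of 8420 rows with gene names (1.14%). Only 2 of these 18 loci are shorter than 300 bases, and that of gga-mir-1740 covers 116631 bases. The libraries were of messenger RNA, so such a row need not measure the small RNA it names. Over the 96 rows with gene names, the median was 3.63 FPKM at E3, 10.8 at E5 and 1.06 at E8, and E5 values ran from 3.06 to 753 FPKM. The E5 value was under 5 FPKM in 24 of them and at least 10 FPKM in 50. The descent to E8 was the larger side of the peak for 82 of the 96, with a median E5 minus E8 of 2.01 against a median E5 minus E3 of 1.15. Over all rows with an E5 value of at least 3 FPKM the same medians were 0.04 and −0.02. The 2 flanks were thus uneven in most of these genes, which describes values that the rule itself used. A larger descent is the same as an E8 value below the E3 value, so this held for the same 82 of the 96. In 51 of them E8 was below E3 by at least 0.7. Those that ended at least 0.7 above their E3 value numbered 6. These counts were not made over all rows, so uneven flanks cannot be called particular to the peaking genes.

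**Figure D1:**
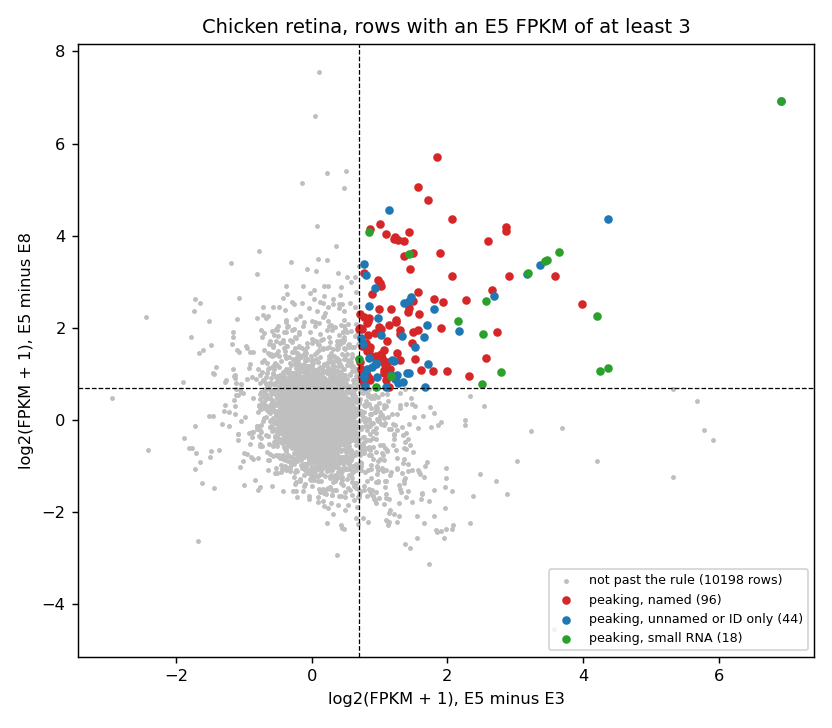
Each point is a chicken row with an E5 value of at least 3 FPKM, placed by its difference of log2(FPKM + 1) between E5 and E3 (x axis) and between E5 and E8 (y axis), with dashed lines at 0.7. The 158 rows in the upper right corner met the rule, and most of the 96 with gene names stand higher on the E8 axis than on the E3 axis.

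The rule's edge cuts through a continuous range. RDH10, FBN2 and a row of joined small nucleolar RNA names were the members nearest to it, with a smaller flank of 0.702, 0.707 and 0.704. Just outside stood SNORA27 (0.6997), RAMP2 (0.699) and SNORA73 (0.698). Between 0.6 and 0.7 there were 37 further rows, and 26 members lay between 0.7 and 0.8. Another 96 rows had both flanks past 0.7 but an E5 value under 3 FPKM.

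Genes of melanin synthesis and melanosomes made up most of the pigment genes in the set. Of 27 pigment cell and pigment epithelium genes found in the chicken table, 19 reached 3 FPKM at E5 and 9 of these were members. That is 47.4% of the 19, against 1.14% of all rows with gene names at that level. The gene lists were chosen with earlier results of these data known, so such shares are description only. MLANA, a melanosome protein, was at 7.01, 57.1 and 2.18 FPKM at E3, E5 and E8. TYR, the tyrosinase that starts melanin synthesis, stands on chromosome 1 from position 192138671 to 192188837 and was at 5.43, 45.7 and 1.74 FPKM. Both had a rise of 2.86 and a larger descent, 4.19 for MLANA and 4.09 for TYR. DCT, a later enzyme of the same pathway, had the highest level of the group at E5, with 19.5, 84.7 and 3.19 FPKM. TYRP1, another melanin enzyme, was at 3.14, 16.3 and 0.998 FPKM. GPR143, a receptor of the melanosome membrane, was close to absent on either side, at 0.506, 10.3 and 0.302 FPKM. The melanosomal glycoprotein GPNMB, the melanosome transport protein OCA2 and the trafficking GTPase RAB38 followed the same course at E5 levels of 17.3, 6.06 and 7.15 FPKM.

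RLBP1, a retinaldehyde-binding protein of pigment epithelium and Müller glia, had the flattest peak of the 9, at 10.9, 25.5 and 11.3 FPKM. Of the 10 pigment list genes at 3 FPKM or more that were not members, 6 were also highest at E5, 3 were highest at E3 and 1 at E8. They include genes of melanosomes, such as the transporters SLC45A2 (3.05, 3.86 and 0.620 FPKM) and SLC24A5 (9.42, 11.3 and 8.16 FPKM) and the GTPase RAB27A (25.1, 28.8 and 15.9 FPKM). MITF, the transcription factor at the head of the pigment programme, was at 16.1, 14.9 and 4.59 FPKM, and TRPM1, a melanocyte cation channel gene, at 61.6, 75.3 and 38.1 FPKM. RPE65, BEST1, LRAT and TTR, genes of the mature pigment epithelium, stayed under 1 FPKM at every stage, and PMEL was listed at 0 throughout. Summed over the 9 members the level was 53.0, 270.2 and 21.1 FPKM, and summed over the other list genes 185, 196 and 92.9 FPKM. The rule itself made this split, so the difference between both sums is no finding.

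In whole-tissue RNA, fewer cells of a type and less RNA per cell cannot be told apart. How much pigment epithelium, lens, blood or mesenchyme came with each dissected retina is not recorded in these sources, and its part in the values was not tested.

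**Figure D2:**
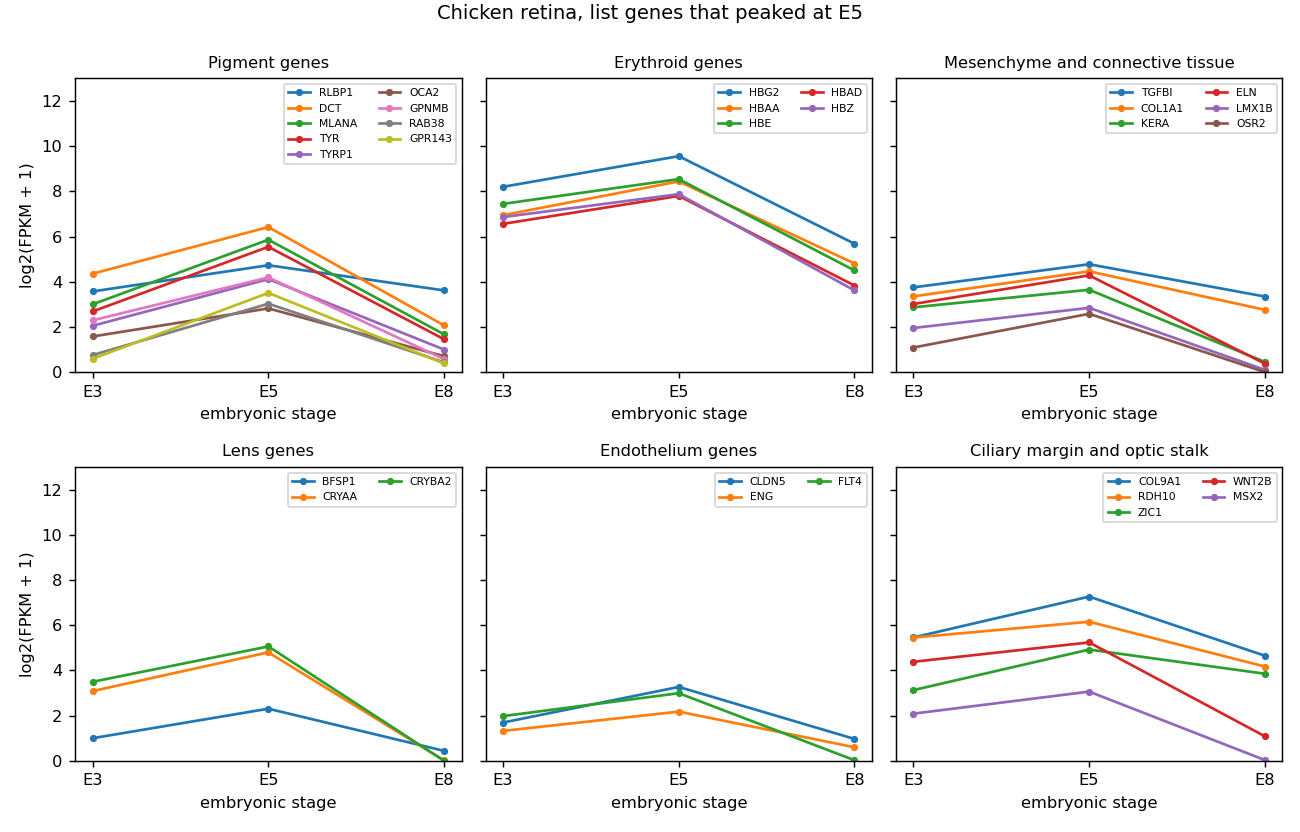
Log2(FPKM + 1) of peaking list genes at E3, E5 and E8 in chicken, with 1 line per gene and 1 panel per list. The steepest rises to E5 are those of pigment genes such as GPR143, MLANA and TYR, while RLBP1 and OCA2 rise less than many genes of other panels. Globin genes start high at E3 and have their lowest level at E8. All genes drawn were chosen for their peak at E5.

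Globin genes carried the highest levels among the named members. All 5 globin genes of the list met the rule, and they lie in a pair of clusters on chromosomes 1 and 14. HBG2, a beta-type globin also known as HBBA, was at 294, 753 and 50.4 FPKM at E3, E5 and E8. HBE, its neighbour 2767 bases away, was at 173, 372 and 21.6 FPKM. On chromosome 14, HBAA was at 122, 346 and 27.0 FPKM and HBAD at 93.6, 221 and 13.2 FPKM. HBZ, an embryonic alpha-type globin, was at 115, 234 and 11.3 FPKM. A further member known as ENSGALG00000007458 has the same locus as HBZ and stood at 218, 481 and 19.5 FPKM. Since globin genes resemble each other closely and the sources do not say how shared reads were assigned, the single values are uncertain. The 5 genes summed to 798, 1927 and 123 FPKM, with the lowest sum at E8. Each was chosen for its peak, so a sum that is highest at E5 is no finding. The erythroid list held 14 genes in the table, of which 10 reached 3 FPKM at E5. Members were 5 of these 10 (50%, against 1.14% of rows with gene names). Of the 5 that were not members, 2 were highest at E3, 2 at E5 and 1 at E8. Among them were FECH (25.0, 18.0 and 9.96 FPKM) and BPGM (23.3, 24.5 and 31.0 FPKM). TFRC, the transferrin receptor used by all dividing cells, was at 66.8, 57.7 and 56.9 FPKM, and RHAG, an erythrocyte membrane protein, was listed at 0 throughout.

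Other members are known from white blood cells. Here and further on, members that no list holds were grouped by known function after their values were seen. HPGDS, the haematopoietic prostaglandin D synthase, was listed at 0 at E3 and had 14.9 FPKM at E5 and 1.78 at E8. SRGN, the granule proteoglycan serglycin, was at 0.352, 7.51 and 0.202 FPKM, and IL1RL1, an interleukin receptor, at 2.18, 18.2 and 0.296 FPKM. LYN, a kinase of the Src family, reached 7.53 FPKM at E5 and TNFRSF1B, a receptor for tumour necrosis factor, 5.19 FPKM. None of the 21 leukocyte markers in the table was a member. Only 2 of them reached 3 FPKM at E5, and the leukocyte markers summed to 25.6, 31.0 and 20.4 FPKM, of which IRF8 alone made up 18.0, 20.4 and 16.6 FPKM. PTPRC, the common leukocyte antigen, stayed under 1 FPKM at all stages.

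Of 9 lens genes that reached 3 FPKM at E5, 4 were members (44.4%, against 1.14% of rows with gene names). CRYBA2, a beta-crystallin, was at 10.3 and 32.4 FPKM at E3 and E5 and was listed at 0 at E8. CRYAA, the alpha A crystallin, was at 7.49, 26.9 and 0.0126 FPKM. BFSP1, a beaded filament protein, had a lower peak of 3.94 FPKM. ASL1, the delta-crystallin gene that dominates the list, was not a member, with 582, 625 and 2.33 FPKM. Whole lens list levels were 718, 801 and 85.6 FPKM. Of the 5 lens genes at 3 FPKM or more that were not members, 2 were highest at E3, 1 at E5 and 2 at E8. Those highest at E8 were CRYAB, the alpha B crystallin also made outside the lens, at 51.6, 45.8 and 52.1 FPKM, and DNASE2B, a nuclease of lens fibres, at 9.11, 9.77 and 13.8 FPKM. GLULD1 (LGSN) was listed at 0 at every stage.

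Genes of the periocular mesenchyme and connective tissue contributed 7 members of 21 that reached 3 FPKM (33.3%, against 1.14% of rows with gene names). LMX1B, a LIM homeobox factor of this tissue, was at 2.87, 6.18 and 0.0717 FPKM at E3, E5 and E8, and OSR2, a zinc finger factor, peaked at 4.99 FPKM and was listed at 0 at E8. Among matrix genes, ELN, which encodes elastin, was at 7.08, 18.5 and 0.296 FPKM. KERA, a proteoglycan of the corneal stroma, reached 11.5 FPKM, COL1A1, a chain of type I collagen, 21.0 FPKM, and TGFBI, a secreted adhesion protein, 26.4 FPKM. LUM, a corneal proteoglycan close to KERA, was at 37.8, 44.3 and 0.106 FPKM and was not a member. DCN, a related proteoglycan, was highest at E3, with 25.0, 6.91 and 0.284 FPKM. The list as a whole summed to 348, 544 and 402 FPKM, and its 7 members to 58.4, 160.3 and 16.05 FPKM. At E8 the sum was carried by FBN1, at 276 FPKM, which went against the members.

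Further regulators and matrix genes outside that list had the same course. PITX1, a homeobox factor, was at 5.49, 16.6 and 0.0404 FPKM. SNAI1, which drives epithelial to mesenchymal transition, reached 10.7 FPKM at E5. TNC, the matrix protein tenascin C, reached 15.4 FPKM, FBN2, a fibrillin of embryonic microfibrils, 7.26 FPKM, and CDH11, a cadherin of mesenchyme, 19.5 FPKM. TINAGL1, a secreted matrix protein, was at 2.03, 4.35 and 0.245 FPKM. Endothelial members were CLDN5, a tight junction protein (2.23, 8.64 and 0.956 FPKM), FLT4, a receptor for vascular endothelial growth factor C (2.94, 6.96 and 0.0179 FPKM), and ENG, a co-receptor for TGF-beta ligands (1.5005, 3.52 and 0.514 FPKM). CLDN5 shares its locus with a second member row that has an identifier only. These were 3 of 11 endothelium genes that reached 3 FPKM (27.3%, against 1.14% of rows with gene names). CDH5, the cadherin that defines the endothelium, was at 5.04, 8.01 and 0.127 FPKM and had too small a rise to be a member. PECAM1, an adhesion protein of endothelium, was at 12.6, 11.6 and 15.3 FPKM and KDR, a receptor for vascular endothelial growth factor, at 12.4, 17.2 and 18.3 FPKM, so both were highest at E8. The endothelium list summed to 72.5, 109 and 46.0 FPKM, and none of its 26 genes was listed at 0 at every stage.

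The ciliary margin and optic stalk list had 5 members of 14 that reached 3 FPKM (35.7%, against 1.14% of rows with gene names). COL9A1, a chain of type IX collagen found in cartilage and the vitreous, was at 43.0, 153 and 24.1 FPKM at E3, E5 and E8. WNT2B, a Wnt ligand of the ciliary margin, was at 19.9, 36.8 and 1.12 FPKM. ZIC1, a zinc finger factor, was at 7.75, 29.4 and 13.5 FPKM, so it kept more of its level at E8 than the others. RDH10, the retinol dehydrogenase that feeds retinoic acid synthesis, was at 42.8, 70.3 and 17.0 FPKM. MSX2, a homeobox factor, was at 3.25, 7.35 and 0.0223 FPKM. Of the 9 list genes at 3 FPKM or more that were not members, 6 were highest at E3, 2 at E5 and 1 at E8. VAX1, a homeobox factor of the optic stalk, was at 45.1, 27.1 and 18.5 FPKM, and BMP7, a bone morphogenetic protein, at 48.5, 37.3 and 20.4 FPKM. BAMBI, a decoy receptor of that pathway, was at 76.8, 179 and 222 FPKM. The list summed to 645, 850.3 and 483 FPKM.

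COL9A1 also stands in the cartilage list, whose other member was LECT1, the cartilage protein chondromodulin, at 69.4, 141 and 35.0 FPKM. These were 2 of 6 cartilage genes that reached 3 FPKM (33.3%, against 1.14% of rows with gene names). SOX9, a transcription factor of cartilage and of retinal progenitors, at 8.36, 17.2 and 35.6 FPKM, and COL11A1, a chain of type XI collagen, at 24.5, 28.5 and 35.2 FPKM, were highest at E8. COL9A3, another type IX collagen chain, stood in 2 rows, at 20.6, 124.7 and 100.5 FPKM in one and at 0.499, 0.188 and 0.0509 FPKM in the other.

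Secreted signals and their receptors were spread through the set. CXCL12, a chemokine that guides migrating cells, was at 8.89, 28.3 and 3.28 FPKM, and SLIT3, an axon guidance ligand, reached 6.57 FPKM. With WNT2B they were 3 members of 29 genes of the signalling list that reached 3 FPKM (10.3%, against 1.14% of rows with gene names). BMP6, a bone morphogenetic protein, was at 3.05, 9.95 and 1.03 FPKM. HHIP, which binds hedgehog ligands, reached 3.28 FPKM, and GAS1, a hedgehog co-receptor, 25.0 FPKM. NOV, a matricellular protein also known as CCN3, was at 3.21, 20.0 and 9.79 FPKM. IGF1R, the receptor for insulin-like growth factors, had the highest E8 level among the named members, with 53.6, 91.7 and 51.4 FPKM. EPHA8, an ephrin receptor of neurons, was at 0.524, 5.07 and 1.91 FPKM.

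Channels, transporters and enzymes made up a further group. SLC38A8, an amino acid transporter of the eye, was at 11.2, 27.4 and 0.857 FPKM. TRPM3, a cation channel, reached 19.3 FPKM, with 2 unnamed members 669 and 2460 bases from its locus. ATP1B1, a subunit of the sodium pump, was at 36.1, 64.9 and 17.4 FPKM. GBE, for which no role is given here, had the largest peak of all named members, with 0.883, 21.7 and 1.61 FPKM. GM2A and SNTB2 also met the rule, but their rows cover 253 and 222 bases only.

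Among all rows with gene names that reached 3 FPKM at E5, 1.14% were members. Genes of neurogenesis and early neurons gave no member among 21 at that level, which is close to that share and no finding. Their median E5 minus E3 was 1.38, above that of the pigment list (0.65), but their median E5 minus E8 was −1.61, since they went on to higher levels at E8. No gene of that list was highest at E5. Muscle (7 genes at 3 FPKM or more), surface epithelium (4), nerve glia and neural crest (2) and blood plasma proteins (1) gave no member either. Lists this small would seldom give a member at a share of 1.14%.

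Rows without a gene name behaved differently from the named ones. Of the 158 members 12 were listed at 0 at both E3 and E8, 7 of them small RNA rows and 5 rows with an identifier only. Among them snoU83B had 120.0 FPKM at E5 and the microRNA row gga-mir-1740 had 11.5 FPKM. A value of 0 can be a failed estimate, so no fold is given for them. Other rows of this kind had high values throughout. The row ENSGALG00000025596, which the reference table does not pair with a gene name, was at 2697, 5736 and 3496 FPKM, the gga-mir-3526 row at 232, 526 and 269 FPKM and a 5S_rRNA row at 67.4, 390 and 226 FPKM. Loci shorter than 300 bases made up 24 of the 158 members and 2.67% of the 10356 rows tested, and only 2 of the 24 have a gene name. Of the 29 unnamed members 5 lay within 10000 bases of a member that carries a name or identifier (17.2%), among them rows next to PRODH, RNF152 and TRPM3, against 6 of 1021 unnamed rows that were not members (0.588%).

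By position, 38 of the 158 members stood on chromosome 1, which held 13.7% of the rows tested and 24.1% of the members. Of rows tested on chromosome 1, 2.67% were members, against 1.53% of all rows tested. Shares were similar or higher on chromosomes 13 (2.69%) and 17 (2.78%), with 6 members each, and on 2 small sets of 20 rows, chromosome 16 (10%) and the mitochondrial genome (5%). Neither table comes with a stated genome build in these sources.

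The pigeon table, which took no part in choosing the genes, was read for each side of the chicken peak. Of the 158 chicken members 47 had a name listed once in pigeon, 13 names stood in several pigeon rows, and 36 of the 96 rows with gene names had no pigeon row of that name. Compared were 45, which reached 1 FPKM at some pigeon stage, and beside them all 4625 symbols listed once in both tables with the same minimum in pigeon and an E5 value of at least 3 FPKM in chicken. In pigeon, 37 of the 45 were lower at E8 than at E5 (82.2%, against 49% of all 4625), and 29 were lower by at least 0.7 (64.4%, against 10.2%). The median E8 minus E5 was −1.90 in chicken and −1.04 in pigeon for these 45, and 0.01 in pigeon over all 4625. In the other direction, 6 of the 45 were higher at E8 than at E5 by at least 0.7 (13.3%, against 9.97%). Rises of that size were thus no rarer in these genes than over all symbols.

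A rise from E3 to E5 of at least 0.7 was shared by few of the 45 genes, though by a larger share than over all 4625. Of the 45 genes 23 were higher at E5 than at E3 in pigeon (51.1%, against 49% of all), and the median E5 minus E3 was 1.16 in chicken and 0.00239 in pigeon. A rise of at least 0.7 was seen in 9 of the 45 (20%, against 1.69%) and a decline of that size in 4 (8.89%, against 1.34%). Over all 4625, changes of that size were less frequent between E3 and E5 (1.69% up, 1.34% down) than between E5 and E8 (9.97% up, 10.2% down). The counts for both sides of the peak are therefore not directly comparable. In pigeon 19 of the 45 were highest at E5 (42.2%, against 22.6%), another 19 were highest at E3 (42.2%, against 31.5%) and 7 were highest at E8 (15.6%, against 45.9%). With 1 pooled value per stage none of these differences has a replicate check, and levels in the 2 tables were normalised separately and are not compared.

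**Figure D3:**
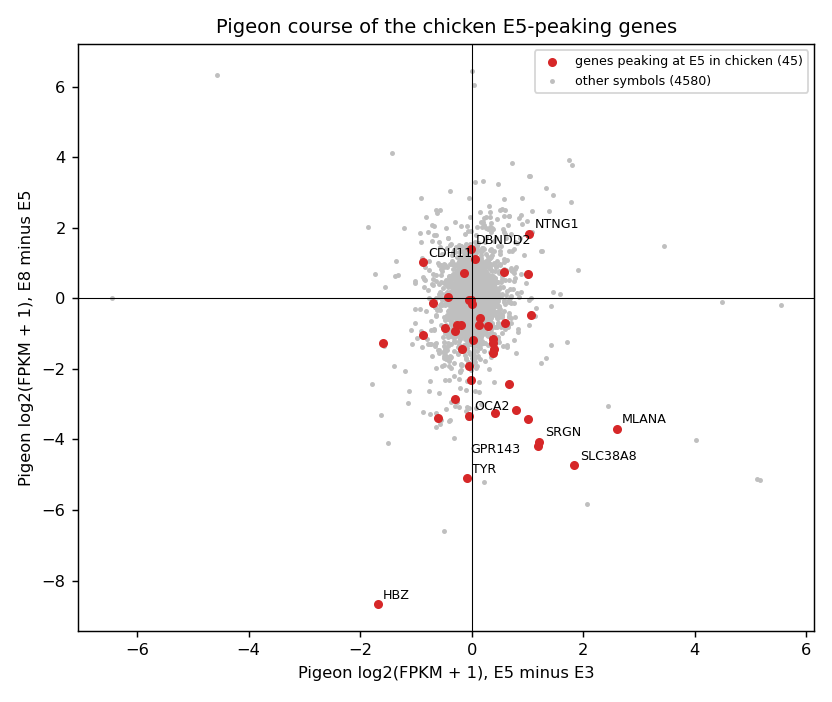
Pigeon differences of log2(FPKM + 1) from E3 to E5 (x axis) and from E5 to E8 (y axis) for 45 genes that peaked at E5 in chicken (red) and 4580 other symbols listed once in both tables (grey). Most red points lie below the horizontal zero line and are spread on both sides of the vertical one.

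The same rule applied to pigeon, with E5 at least 0.7 above both neighbours and at least 3 FPKM, took in 6 of the 45 (13.3%, against 0.432% of all 4625). Among them were MLANA, SLC38A8, SRGN, GPR143 and TINAGL1. In pigeon MLANA was at 1.15 and 12.01 FPKM at E3 and E5 and was listed at 0 at E8. SLC38A8 was at 21.4, 79.1 and 2.03 FPKM, which gave it the second largest pigeon peak of the 45, after MLANA. GPR143 was at 9.12, 22.2 and 0.284 FPKM, and SRGN at 6.21 and 15.7 FPKM before being listed at 0. TINAGL1 was at 5.34, 11.7 and 0.176 FPKM. The SRGN and MLANA models of pigeon are short, with 249 and 306 bases. In the opposite direction, 41 symbols listed once in both tables met the rule in pigeon at any chicken level, and the 6 shared genes were 14.6% of them. Some of the 41, such as IHH, were too low in chicken to be members. Others, such as RFXANK (150 bases), rest on short pigeon models listed at 0 at E3 and E8. Among the 4625 symbols with at least 3 FPKM at E5 in chicken, 20 met the rule in pigeon, the same 6 genes among them. For comparison, 47 of the 4657 symbols listed once in both tables with a chicken E5 value of at least 3 FPKM were chicken members.

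After the genes that met the rule in pigeon, the next largest pigeon peaks were those of RBM47, GGT5, ZIC1 and RLBP1. RBM47, an RNA-binding protein, was at 2.99, 5.36 and 0.176 FPKM, and GGT5, a glutamyl transferase, at 3.43, 5.71 and 3.16 FPKM. ZIC1 was at 13.1, 28.3 and 20.2 FPKM and RLBP1 at 12.9, 17.6 and 0.953 FPKM. Their smaller flanks were 0.672, 0.598, 0.467 and 0.419, so only RBM47 came near the limit of 0.7. RLBP1 had a much deeper descent in pigeon, −3.25 from E5 to E8, than in chicken, −1.11. A difference between species was not tested for any gene.

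Several pigment genes were already high at E3 in pigeon. TYR had 5.43, 45.7 and 1.74 FPKM in chicken and 73.1, 68.5 and 1.02 FPKM in pigeon at E3, E5 and E8. OCA2 had 1.98, 6.06 and 0.627 FPKM in chicken and 11.4, 11.05 and 0.200 FPKM in pigeon. GPNMB had 3.90, 17.3 and 0.490 FPKM in chicken and 42.8, 42.6 and 7.74 FPKM in pigeon. Their pigeon levels at E3 and E5 were thus nearly equal, with E5 minus E3 of −0.09 for TYR, −0.04 for OCA2 and −0.01 for GPNMB, and all had their lowest level at E8, as in chicken. DCT, in 2 pigeon rows, was at 13.1, 16.3 and 2.69 FPKM in one and 27.1, 37.0 and 4.63 FPKM in the other. RAB38, also in 2 rows, was at 22.2, 18.4 and 8.25 FPKM and at 8.05, 11.3 and 0.652 FPKM. Of 17 pigment list genes listed once in pigeon, 15 reached 1 FPKM and 4 of these were highest at E5. Over all 4625 symbols compared, 22.6% were highest at E5 in pigeon. Those symbols had to be listed once and reach 3 FPKM at E5 in chicken, which was not asked of the 15 list genes.

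**Figure D4:**
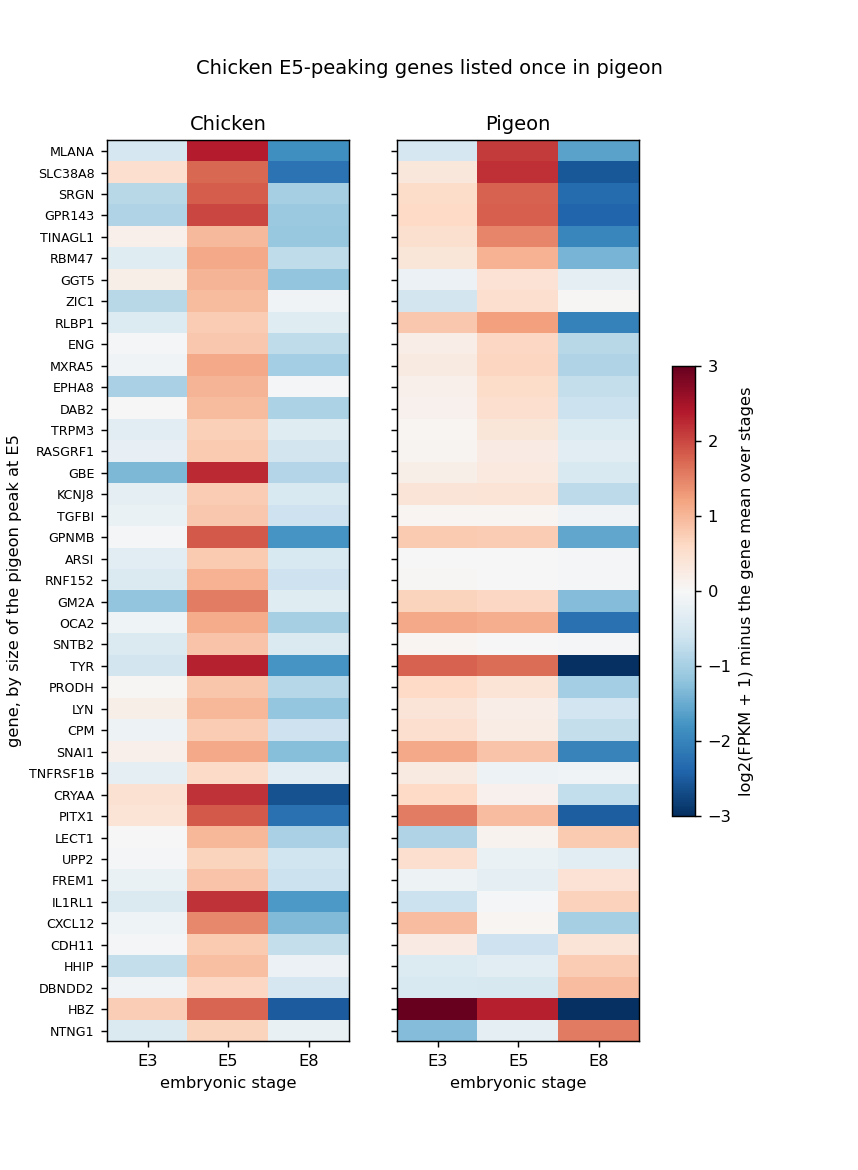
Log2(FPKM + 1) minus the gene's own mean over the 3 stages, in chicken (left) and pigeon (right), for 42 of the 45 genes compared, ordered by the size of the pigeon peak at E5, with colours saturating at 3 on either side. The E8 column is mostly blue in both species, while the pigeon E3 column is in shades of red for many genes in the lower and middle part.

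Genes at the other end went against the chicken course, either before E5, after it or both. NTNG1, a netrin of the axon membrane, was at 3.58, 8.84 and 4.38 FPKM in chicken and at 0.360, 1.78 and 8.88 FPKM in pigeon. HBZ had 115, 234 and 11.3 FPKM in chicken and 2119.6, 657 and 0.615 FPKM in pigeon, so it was highest at E5 in chicken and at E3 in pigeon. DBNDD2 had 32.6, 54.4 and 24.8 FPKM in chicken and 26.6, 26.2 and 70.6 FPKM in pigeon. HHIP was at 0.397, 3.28 and 1.02 FPKM in chicken and at 1.75, 1.85 and 5.12 FPKM in pigeon. These 4 genes were among the 5 with the most negative pigeon peaks of the 45. CXCL12 (19.2, 10.03 and 4.35 FPKM) and PITX1 (15.03 and 9.54 FPKM, then listed at 0) were highest at E3 in pigeon. Both were lower at E8 than at E5, as in chicken, and the pigeon model of CXCL12 is short, with 207 bases. GBE, with the largest chicken peak among named genes, was at 1.39, 1.61 and 0.541 FPKM in pigeon, where E5 was also highest.

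The marker lists of neighbouring tissues, summed over symbols listed once in pigeon, did not peak at E5 there. The pigment list summed to 238, 466 and 114 FPKM in chicken at E3, E5 and E8, and to 730.1, 655 and 384 FPKM in pigeon. For endothelium the sums were 72.5, 109 and 46.0 FPKM in chicken and 111, 72.0 and 20.7 FPKM in pigeon. For mesenchyme and connective tissue they were 348, 544 and 402 FPKM in chicken and 363, 290 and 139 FPKM in pigeon. For erythroid cells they were 2712, 4462 and 2569 FPKM in chicken and 5476, 2354 and 1423 FPKM in pigeon. CA2, a carbonic anhydrase that the retina also makes, gave 1792, 2428 and 2344 FPKM of the chicken erythroid sums. The lists hold different genes in the 2 tables, so only the courses can be set side by side. The chicken sums include the genes chosen for their peak. Without them the chicken sums were 185, 196 and 92.9 FPKM for pigment, 65.8, 90.1 and 44.5 FPKM for endothelium, 289.9, 384 and 386 FPKM for mesenchyme and 1913, 2535 and 2445 FPKM for erythroid cells. The mesenchyme sum was then highest at E8. All 4 lists were highest at E3 in pigeon. The lens list (16.05, 11.6 and 25.3 FPKM) and the cartilage list (46.5, 64.3 and 74.3 FPKM) were highest at E8 there. The part of these lists in the courses of the 45 genes was not tested.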

How the data were processed

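RNA was extracted with Trizol and made into stranded messenger RNA libraries from 1 to 6 retinas each, per the labels' protocols. TopHat2, Bowtie2, Cufflinks and Cuffdiff are named in the submitters' processing notes, without versions, roles or genome builds. Per the file headers, the authors deposited FPKM, 1 pooled column for each stage in a table per species. The length of each pigeon gene model is given in the deposited table as another column.

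From these values, log2(FPKM + 1) and its differences between stages were computed with Python 3.11.15 (pandas 2.3.3, numpy 2.4.6). No test was run, since a test needs a value per library. Members and gene lists were chosen with earlier results of these data known. The 14 lists were matched by name or by an older symbol in a reference table (assembly GRCg7b), from which no coordinates were taken. Starts were read as counting from 0 and are printed counting from 1. Named were list members, the highest levels, the largest peaks and the ends of the pigeon order; further genes were chosen after their values were seen. The working of the peak rule was tried on simulated data with large added peaks and little noise. Such a trial does not measure how often the rule errs in the real values. A few genes are not reported here by name, though counts and sums include them.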

Additional observations from a re-analysis of the deposited data

How the results depend on the processing

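No paired analysis was possible because each stage has 1 pooled value, and leaving out single replicates was not run for the same reason. The number of peaking chicken rows was 82 with a pseudocount of 5, 254 with no minimum at E5, 78 with at least 10 FPKM at E5 and 95 with a difference of at least 1, against 158 as reported; these settings are stricter or looser by construction. With named genes alone, added after seeing the data, it was 95. The other 72 of 77 recomputed values stayed within 1.5 times the reported count or median (or within 0.1 of the median), or within the 95% exact binomial interval of the reported share. These include median-ratio scaling (156 rows), quantile normalisation (149) and, also added after seeing the data, the set without the genes of 11 other-tissue lists (128). The interval treats genes as independent and is wide, and many settings reuse the same genes. The count of 72 therefore describes the settings and is no test of the results. Over the settings where each was recomputed, the share of members highest at E5 in pigeon ran from 40% to 46.9%. That share was not recomputed with the other pseudocounts. The share lower at E8 than at E5 ran from 78.3% to 90.5%. The pigeon median E8 minus E5 ran from −1.54 to −0.78. The limits include unknown depth, pooled values and the unrecorded share of other tissues in each retina.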

Other observations

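The mirror image of the rule, an E5 value at least 0.7 below both E3 and E8 with at least 3 FPKM at one of them, was met by 39 of 24708 chicken rows, of which 9 have a gene name. Its minimum applies at E3 or E8 instead of E5, so this count is not directly comparable with the 158 peaking rows. SALL1, a zinc finger factor, was at 33.6, 16.3 and 27.6 FPKM at E3, E5 and E8. VLDLR, a receptor for reelin and lipoproteins, was at 13.2, 6.08 and 12.2 FPKM, and FGF3, a fibroblast growth factor, at 5.34, 2.74 and 10.8 FPKM. POLR2K, a small subunit of RNA polymerase II, was at 44.5, 13.9 and 37.2 FPKM.

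Of the 41 symbols that met the rule in pigeon, those that did not in chicken included SERPINE3, at 0.0348, 1.93 and 0.202 FPKM in chicken and 0.123 and 4.96 FPKM in pigeon before being listed at 0, which missed the chicken minimum of 3 FPKM alone. FOXI2, a forkhead factor, was at 30.3, 37.1 and 14.9 FPKM in chicken and at 147, 249.6 and 110.2 FPKM in pigeon. SLC13A3, a carboxylate transporter, was at 5.06, 7.95 and 2.67 FPKM in chicken and at 3.60, 9.88 and 2.06 FPKM in pigeon. These genes were named after their values were seen.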
